A study of Mus musculus with 12 samples.

Results

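The genes described here are those of antigen presentation by the major histocompatibility complex (MHC), measured in stroma grown from bone marrow, a mixed adherent culture that supports blood-forming cells. Members were all probe sets of the deposited table whose platform symbols all begin with H2-, together with those named singly for Cd74, Ciita, B2m, Tap1, Tap2, Psmb8 or Psmb9. Of 3109 probe sets tested, 8 met that rule. Of these, 7 measure class I, namely the heavy chains H2-K1, H2-D1, H2-Q9;H2-Q7, H2-Q6;H2-Q8, H2-T24 and H2-M9 and the shared light chain B2m, and 1 measures Psmb8, a proteasome subunit. Class II had 0 members, as no probe set of an H2-A, H2-E, H2-O or H2-DM chain or of Cd74 or Ciita was in the table. Class I and class II could therefore not be set against each other, and class II was not analysed here. Of the 7 singly named genes, B2m and Psmb8 had a probe set and the other 5 had none.

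There were 12 arrays, 4 each from wild-type, Crebbp+/- and Ep300+/- mice, all C57BL/6 and 3 to 4 months of age. Crebbp+/- and Ep300+/- mice carry 1 working copy of the gene for CBP or for p300, a pair of histone acetyltransferases that serve as transcriptional coactivators. All 3 genotypes had the same culture, in which marrow grew for 2 weeks in M5300 medium and the layer then received 1500 cGy and a full change of medium before RNA was taken. The labels describe whole-body heterozygotes and a mixed adherent culture with no sort, call the 4 arrays of a genotype biological replicates, and do not say whether marrow was pooled. Adjusted p-values therefore set a difference against the spread between these arrays.

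Class I molecules carry peptides made in the cell's own cytosol to the surface, where cytotoxic T cells and natural killer cells read them. A heavy chain folds with B2m in the endoplasmic reticulum, with peptides cut by the proteasome and brought in by the Tap transporter. Class II molecules present peptides from ingested material and are largely restricted to professional antigen-presenting cells. Interferons raise class I, B2m and the inducible proteasome subunits together, through interferon response elements and NF-kB sites in their promoters, and class I promoters also hold a site of the CREB type and a CCAAT box.

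Promoters are shown to let a reader see which of these motifs the members hold. RefSeq promoters (mouse build GRCm38.p6, 250 bases before to 50 after the start site) were matched by symbol for 7 of the 10 symbols that the 8 probe sets carry, and H2-T24, H2-Q8 and H2-Q9 had no entry. Capitals mark matches, on either strand. They stand for 2 forms of an NF-kB core, first GGGATTC and second GGGACTT, for ANTGAAA as the interferon response core, for TGACG as the CREB core and for the CCAAT box. No marked match overlaps another. The sequences are those of H2-D1 (chr17:35262844-35263143, plus strand), H2-Q7 (chr17:35438905-35439204, plus strand), H2-Q6 (chr17:35424600-35424899, plus strand), B2m (chr2:122147437-122147736, plus strand) and H2-M9 (chr17:36642614-36642913, minus strand), each printed in the direction of its gene.
H2-D1: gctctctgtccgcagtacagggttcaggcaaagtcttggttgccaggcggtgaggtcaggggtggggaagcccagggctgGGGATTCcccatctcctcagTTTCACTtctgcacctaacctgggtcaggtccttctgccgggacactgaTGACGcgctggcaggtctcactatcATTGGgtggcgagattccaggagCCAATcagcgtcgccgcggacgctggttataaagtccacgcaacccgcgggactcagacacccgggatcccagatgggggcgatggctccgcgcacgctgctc
H2-Q7: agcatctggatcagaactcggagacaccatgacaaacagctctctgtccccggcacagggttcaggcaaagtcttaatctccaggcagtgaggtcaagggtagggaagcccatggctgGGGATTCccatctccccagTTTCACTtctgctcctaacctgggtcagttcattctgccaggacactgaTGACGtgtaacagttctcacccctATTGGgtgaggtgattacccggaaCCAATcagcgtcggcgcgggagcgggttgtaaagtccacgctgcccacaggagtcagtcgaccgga
H2-Q6: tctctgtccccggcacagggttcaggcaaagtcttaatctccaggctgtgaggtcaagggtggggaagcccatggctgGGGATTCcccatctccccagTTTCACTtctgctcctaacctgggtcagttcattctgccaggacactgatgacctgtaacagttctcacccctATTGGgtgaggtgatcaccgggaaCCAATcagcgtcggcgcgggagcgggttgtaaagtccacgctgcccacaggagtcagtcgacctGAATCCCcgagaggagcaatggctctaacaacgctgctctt
B2m: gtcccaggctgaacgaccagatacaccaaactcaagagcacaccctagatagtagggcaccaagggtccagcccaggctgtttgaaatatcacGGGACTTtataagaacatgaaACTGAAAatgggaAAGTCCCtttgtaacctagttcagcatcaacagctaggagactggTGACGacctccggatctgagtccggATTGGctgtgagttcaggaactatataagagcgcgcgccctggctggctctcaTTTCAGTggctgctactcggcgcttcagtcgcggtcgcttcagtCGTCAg
H2-M9: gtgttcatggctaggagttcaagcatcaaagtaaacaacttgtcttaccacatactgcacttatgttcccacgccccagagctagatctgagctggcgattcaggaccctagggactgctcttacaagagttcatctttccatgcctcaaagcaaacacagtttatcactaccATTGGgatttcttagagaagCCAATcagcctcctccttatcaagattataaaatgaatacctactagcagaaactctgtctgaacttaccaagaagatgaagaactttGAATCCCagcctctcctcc

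The H2-D1, H2-K1 and H2-Q7 promoters held the first NF-kB form, the interferon core, the CREB core and a CCAAT box, in that order. From the first base of that NF-kB match to that of the interferon core there were 20 bases in H2-D1, H2-K1 and H2-Q6 and 19 in H2-Q7. To that of the CREB core there were 69 in H2-D1 and H2-K1 and 68 in H2-Q7. The H2-Q6 promoter held no CREB core in this window. B2m held the second NF-kB form on each side of an interferon core, with a CREB core and a CCAAT box nearer the start site. H2-M9 held 2 CCAAT matches and, after its start site, 1 match to the first NF-kB form, with no interferon or CREB core. Psmb8 held 1 interferon core after its start site and none of the others. Of the 32851 promoters in that collection, 3.08% hold the first NF-kB form, 5.44% the second form, 16.7% the interferon core, 20.8% the CREB core and 37.4% a CCAAT box, while 0.0457% hold all of these but the second NF-kB form. A match is a run of letters and was not tested as a binding site.

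Levels are log2 values made by the authors with GCRMA, which corrects background from probe sequence and normalizes between arrays. They are relative within a probe set and are not compared between probe sets. Array medians lay between 7.98 and 8.43. No tested probe set had an interquartile range under 0.5001, and each reached the log2 of 100 on 3 arrays or more, so flat genes are outside the table. B2m, H2-D1, H2-M9 and Psmb8 were above that level on all 12 arrays, H2-Q9;H2-Q7 on 7, H2-T24 and H2-K1 on 5 each and H2-Q6;H2-Q8 on 3. For H2-T24 these were 4 Crebbp+/- arrays and 1 wild-type array, for H2-K1 3 Crebbp+/- arrays and 1 of each other genotype, and for H2-Q6;H2-Q8 2 Crebbp+/- arrays and 1 Ep300+/- array. Without their Crebbp+/- arrays these 3 probe sets would not have reached the level on 3 arrays. They are in the table through the group where they are high and had to differ between arrays, so counts and medians over the members are descriptions and support nothing. Some class I heavy chain genes are near-identical in sequence. The H2-Q probe sets each carry the symbols of 2 genes, and the H2-K1 probe set is of a kind whose probes can match related transcripts, so signal may be shared among heavy chains.

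**Figure D1:**
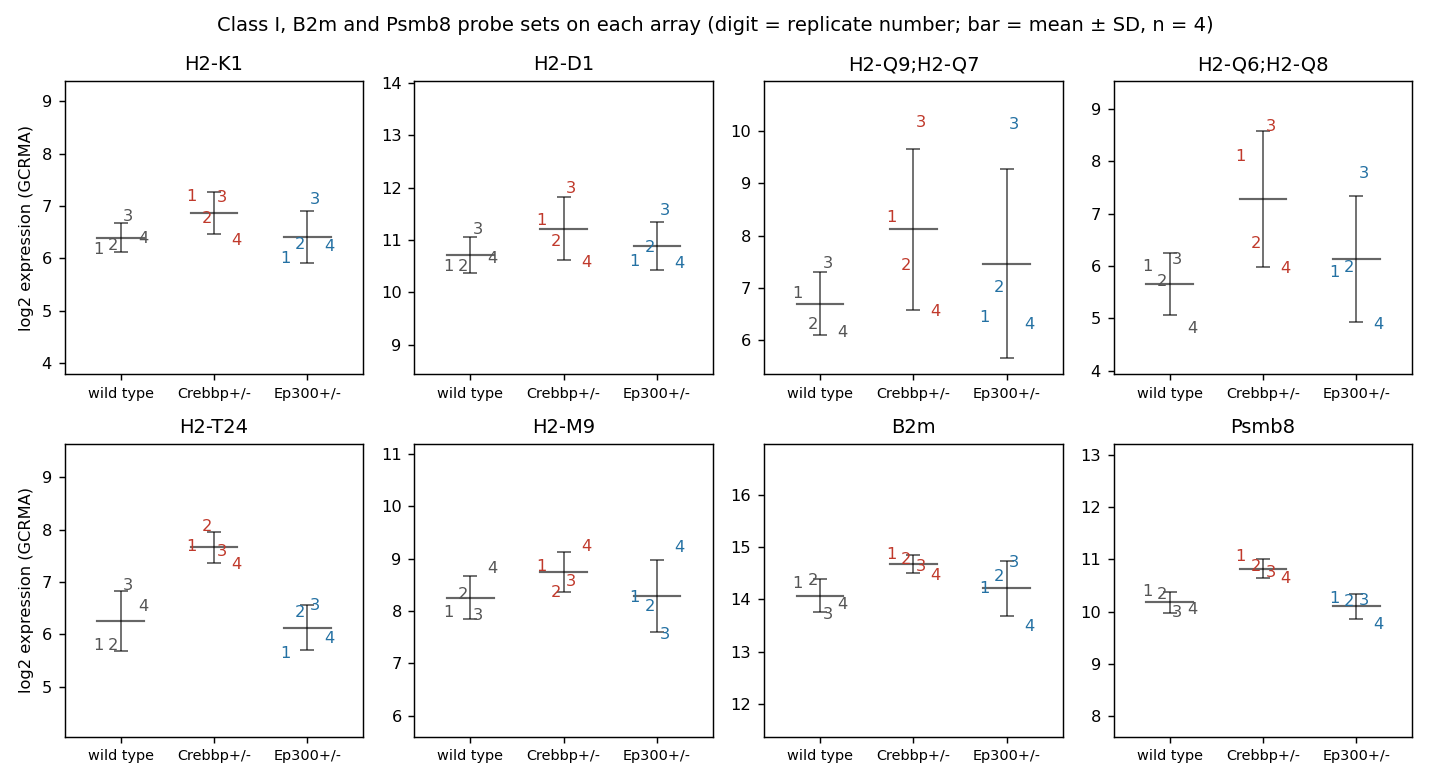
Log2 expression (vertical axis, GCRMA, each panel spanning the same number of log2 units) of the 8 probe sets by genotype. Digits are single arrays by replicate number, horizontal lines are means and bars are 1 SD (n = 4). H2-T24, B2m and Psmb8 on the 4 Crebbp+/- arrays lie above all 4 wild-type arrays, while H2-Q9;H2-Q7 is highest on the Crebbp+/- and Ep300+/- arrays numbered 3 and H2-Q6;H2-Q8 on Crebbp+/- 3 and 1.

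H2-T24, a nonclassical class I heavy chain gene of the T region, was the 1 member called higher in Crebbp+/- stroma, and it is in the table only through its 4 Crebbp+/- arrays, since 1 wild-type array and 0 Ep300+/- arrays reached the log2 of 100. Its log2 level was 5.78, 5.78, 6.94 and 6.53 on wild-type arrays 1 to 4, 7.68, 8.05, 7.58 and 7.33 on the Crebbp+/- arrays, and 5.63, 6.41, 6.55 and 5.92 on the Ep300+/- arrays. All 4 Crebbp+/- arrays were above every wild-type and Ep300+/- array, and the wild-type and Ep300+/- arrays overlapped. The mean rose from 6.26 ± 0.58 (SD, n = 4) to 7.66 ± 0.30, a log2 difference of 1.40 or 2.64-fold (SE 0.33, 95% interval 0.69 to 2.11, limma adjusted p = 0.0284). The exact two-sided permutation p was 0.0286, the smallest that 4 against 4 unpaired arrays allow. When the replicate number entered the model as a block, the limma adjusted p was 0.0119. In Ep300+/- stroma the log2 difference from wild type was -0.13 (95% interval -0.84 to 0.58, limma adjusted p = 0.975). Against Ep300+/- stroma H2-T24 was 2.89-fold higher in Crebbp+/- (log2 difference 1.53, SE 0.33, limma adjusted p = 0.0218, and 0.00815 with the block). Both differences are measured on the same 4 Crebbp+/- arrays.

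The size of the H2-T24 difference from wild type stayed between 1.24 and 1.63 without any 1 array, but the call did not hold throughout. The limma adjusted p was 0.0631, 0.0905 and 0.0721 without wild-type 1, 2 and 4, 0.102, 0.0930 and 0.0588 when Crebbp+/- 1, 2 and 3 were dropped in turn, and 0.0563 after quantile normalization. Against Ep300+/- it was 0.0798 without Crebbp+/- 1, 0.0745 without Crebbp+/- 2, 0.0720 on dropping Ep300+/- 1 and 0.0625 on dropping Ep300+/- 4. Crebbp+/- 1 and 3 had log2 levels of 2.73 and 2.69 for Eif2s3y, which lies on the Y chromosome, where the remaining arrays had 8.41 to 10.84. With its level as a covariate no probe set of the whole table passed in any comparison, and H2-T24 had log2 differences of 1.59 (adjusted p = 0.266) and 1.69 (adjusted p = 0.176), from wild type and from Ep300+/-. H2-T24 was at 7.68 and 7.58 on Crebbp+/- 1 and 3, and at 8.05 and 7.33 on Crebbp+/- 2 and 4, where Eif2s3y was at 8.41 and 9.22. The part of the Eif2s3y difference in the H2-T24 result was not tested further.

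Psmb8 is the interferon-inducible proteasome subunit that replaces a constitutive one when peptides are made for class I. It stood at 10.39, 10.32, 9.98 and 10.04 in wild type, 11.06, 10.86, 10.74 and 10.63 in Crebbp+/- and 10.26, 10.19, 10.21 and 9.76 in Ep300+/-. As for H2-T24, all 4 Crebbp+/- arrays were above the other 8. The log2 difference from wild type was 0.64 (1.56-fold, SE 0.23, limma adjusted p = 0.104) and that from Ep300+/- was 0.72 (1.65-fold, SE 0.23, limma adjusted p = 0.0768), neither past the threshold of 0.05. With the replicate number as a block, both passed, with limma adjusted p-values of 0.0246 and 0.0159. Ep300+/- and wild type differed by -0.076 (95% interval -0.57 to 0.42).

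B2m, the light chain that every class I heavy chain needs to reach the surface, read 14.31, 14.37, 13.72 and 13.90 in wild type, 14.86, 14.77, 14.63 and 14.46 in Crebbp+/- and 14.21, 14.43, 14.70 and 13.49 in Ep300+/-. The Crebbp+/- arrays lay above every wild-type array but overlapped Ep300+/- 3. The log2 difference from wild type was 0.61 (1.52-fold, SE 0.29, limma adjusted p = 0.195, and 0.0855 with the block), not past the threshold. That between Ep300+/- and wild type was 0.13 (95% interval -0.49 to 0.76), and that between the heterozygotes was 0.47 (limma adjusted p = 0.346), or 0.23 without Ep300+/- 4. After quantile normalization the differences of Crebbp+/- from wild type were 0.31 for B2m and 0.38 for Psmb8.

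H2-Q7 and H2-Q9 encode Qa-2, a nonclassical class I molecule, and the probe set for both had the widest range of the 8 members, from 6.15 to 10.16. It read 6.89, 6.31, 7.47 and 6.15 in wild type, 8.34, 7.42, 10.16 and 6.56 in Crebbp+/-, and 6.44, 7.01, 10.13 and 6.29 in Ep300+/-. The highest array of each heterozygote was the one numbered 3, and the remaining Ep300+/- arrays lay within the wild-type range. The log2 difference of Crebbp+/- from wild type was 1.42 (SE 0.86, 95% interval -0.45 to 3.28, limma adjusted p = 0.303, and 0.0468 with the block), and without Crebbp+/- 3 it was 0.74. In Ep300+/- it was 0.77 (SE 0.86, limma adjusted p = 0.965), and without Ep300+/- 3 it was -0.12.

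The probe set of the neighbouring H2-Q6 and H2-Q8 read 5.99, 5.72, 6.13 and 4.80 in wild type, 8.09, 6.43, 8.67 and 5.95 in Crebbp+/-, and 5.88, 5.98, 7.78 and 4.89 in Ep300+/-. Crebbp+/- 1 and 3 and Ep300+/- 3 stood apart at the top, Crebbp+/- 4 lay within the wild-type range, and values under 5 on wild-type 4 and Ep300+/- 4 may be background. Only 2 Crebbp+/- arrays and 1 Ep300+/- array reached the log2 of 100, so this probe set would not be in the table without its Crebbp+/- arrays. The log2 difference of Crebbp+/- from wild type was 1.62 (3.08-fold, SE 0.67, limma adjusted p = 0.147, and 0.0135 with the block), or 1.16 without Crebbp+/- 3. Between the heterozygotes it was 1.15 (limma adjusted p = 0.317, and 0.0412 with the block), or 0.69 without Crebbp+/- 3, 0.74 without Ep300+/- 4 and 0.21 with the Eif2s3y level as a covariate. In Ep300+/- it was 0.47 (limma adjusted p = 0.965), and without Ep300+/- 3 it was -0.078.

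H2-D1 and H2-K1 encode the classical heavy chains that present peptides to cytotoxic T cells. H2-D1 read 10.50, 10.49, 11.21 and 10.65 in wild type, 11.37, 10.97, 11.98 and 10.57 in Crebbp+/-, and 10.60, 10.85, 11.56 and 10.55 in Ep300+/-. H2-K1 read 6.16, 6.25, 6.80 and 6.37 in wild type, 7.18, 6.76, 7.17 and 6.35 in Crebbp+/-, and 5.99, 6.27, 7.12 and 6.23 in Ep300+/-. For H2-D1 the array numbered 3 was the highest of each of the 3 genotypes, and both genes overlapped between every pair of genotypes. In Crebbp+/- the log2 differences from wild type were 0.51 for H2-D1 (SE 0.34, limma adjusted p = 0.355) and 0.47 for H2-K1 (SE 0.31, limma adjusted p = 0.342), and without Crebbp+/- 3 that of H2-D1 was 0.26. In Ep300+/- they were 0.18 for H2-D1 (95% interval -0.57 to 0.92) and 0.0068 for H2-K1 (95% interval -0.65 to 0.67), and neither gene passed with the block in any comparison. With the Eif2s3y level as a covariate the Crebbp+/- differences from wild type were 0.40 for H2-Q9;H2-Q7, 0.55 for H2-Q6;H2-Q8, 0.098 for H2-D1 and 0.19 for H2-K1, each less than 0.5 of its value without it, and none passed. Crebbp+/- 1 and 3, low in Eif2s3y, were the highest Crebbp+/- arrays for all 4 of these probe sets. With that covariate Psmb8, B2m and H2-M9 had differences from wild type of 0.55, 0.56 and 0.41, beside 0.64, 0.61 and 0.50 without it. None of these passed. The part of the Eif2s3y difference between the arrays in these results was not tested further.

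H2-M9 belongs to a set of class I genes known from vomeronasal neurons. It read 7.96, 8.32, 7.91 and 8.81 in wild type, 8.85, 8.36, 8.56 and 9.23 in Crebbp+/-, and 8.26, 8.09, 7.55 and 9.21 in Ep300+/-. Array 4 was the highest of each genotype, whereas the H2-Q6;H2-Q8 probe set was lowest on array 4 of each. The log2 difference of Crebbp+/- from wild type was 0.50 (SE 0.36, limma adjusted p = 0.392, and 0.119 with the block), and that of Ep300+/- was 0.030 (95% interval -0.75 to 0.81).

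**Figure D2:**
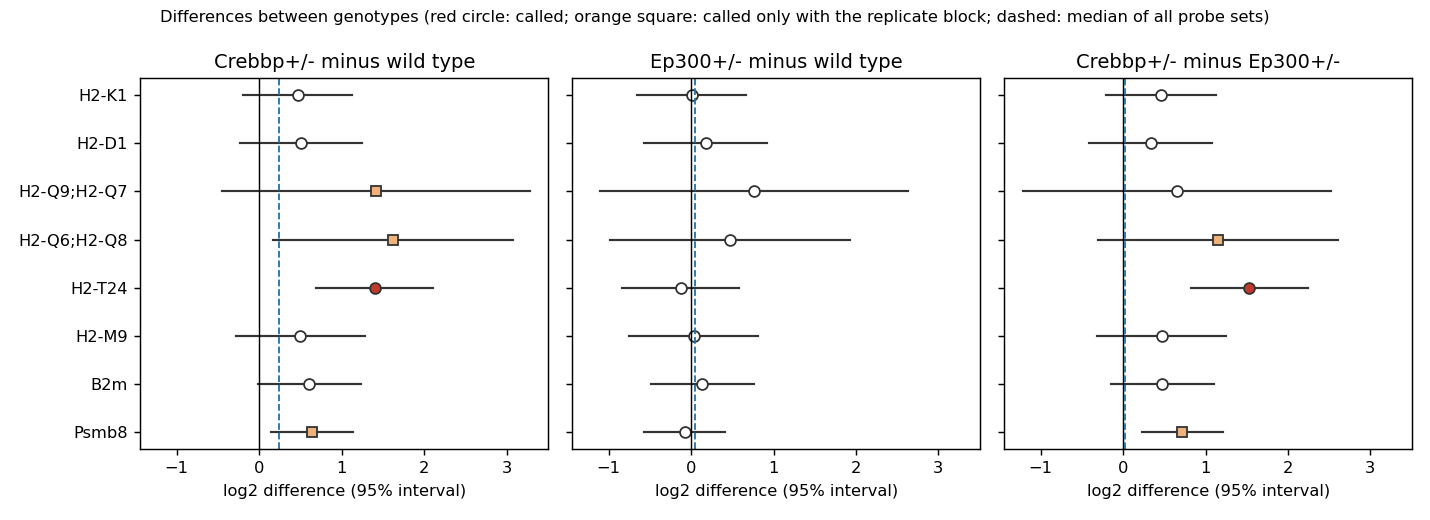
Log2 differences between genotypes for the 8 probe sets (points, horizontal axis) with limma's 95% intervals (lines) from the fit without the block. The dashed line is the median of all 3109 probe sets. H2-T24 passed in both comparisons of Crebbp+/-, the orange squares passed only with the replicate number as a block, and no member passed in Ep300+/- against wild type.

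Set against the whole table, 1 of 8 members had risen in Crebbp+/- stroma, where 5.02% of probe sets had. That member is H2-T24, which the table holds only because of its Crebbp+/- arrays, and it is also among each of the following counts. Under the block 4 of 8 had (H2-T24, H2-Q6;H2-Q8, Psmb8 and H2-Q9;H2-Q7), where 17.5% of probe sets had. H2-Q6;H2-Q8 would not be in the table without its Crebbp+/- arrays either, and it is also among the members with an unadjusted p under 0.05. The 4 Crebbp+/- arrays lay wholly above the 4 wild-type arrays in 3 of 8 members, against 10.4% of probe sets. At an unadjusted p under 0.05 there were also 3 of 8, against 26.7% of probe sets. All 8 differences were above 0, as were 62.4% in the table. The class I median was 0.61 and the median of all probe sets 0.24. Quantile normalization brought the latter to 0.022, and centring each array on its median brought it to 0.044, with class I medians of 0.42 and 0.41 and all 8 members still above 0.

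In Ep300+/- against wild type 0 of 8 members passed by limma, 0 with the block and 0 at an unadjusted p under 0.05, where 0%, 0.0322% and 4.05% of probe sets did. The array groups were fully apart in 0 of 8 members, against 1.99% of probe sets higher and 2.16% lower. The class I median was 0.13 beside 0.049 for all probe sets. Its sign was not stable, as it was -0.078 without Ep300+/- 3, 0.29 without Ep300+/- 4 and -0.014 after quantile normalization. Of the 8 differences 6 were above 0, as were 54.8% in the table, a count that fell to 2 after quantile normalization and 4 after centring. Between the heterozygotes 1 of 8 was higher in Crebbp+/-, where 4.89% of probe sets were (again H2-T24), and 3 of 8 with the block (H2-T24, Psmb8 and H2-Q6;H2-Q8), where 19.1% were. H2-T24 and H2-Q6;H2-Q8 would not be in the table without their Crebbp+/- arrays. The groups were apart in 2 of 8, against 9.13%, and 2 of 8 had an unadjusted p under 0.05, against 25.2%. All 8 differences were above 0, as were 51.4% in the table, and the class I median was 0.47 beside 0.025 for all probe sets. The comparisons share arrays and are not independent of each other.

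Members fell into patterns across the 12 arrays. The H2-Q probe sets varied together (Pearson r = 0.92 over 12 arrays), and so did H2-Q9;H2-Q7 with H2-D1 (0.94) and H2-D1 with H2-K1 (0.92). With the genotype means removed these were 0.93, 0.94 and 0.92. B2m and Psmb8 varied together with r = 0.86, and 0.87 with genotype means removed. H2-T24 and Psmb8 had r = 0.71, and -0.23 with genotype means removed, so within genotypes their arrays did not follow the same order. H2-M9 ran against the other 7 within genotypes, with r from -0.72 for B2m to -0.39 for H2-T24. These are descriptions over arrays that share a normalization, and related probe sets may share signal.

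**Figure D3:**
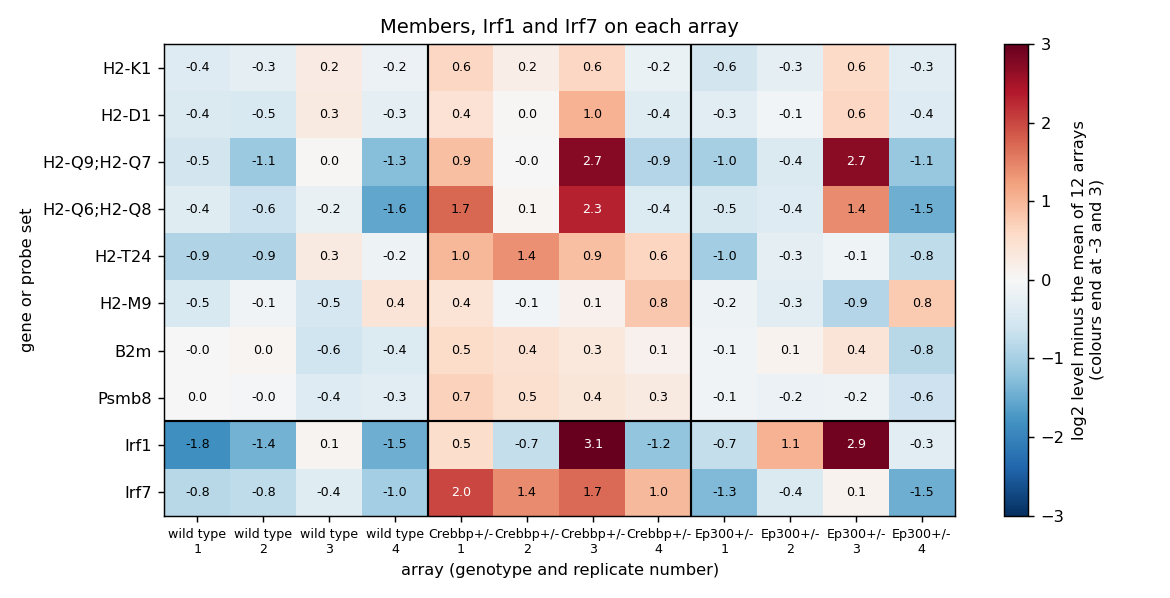
Log2 level of each member, and of Irf1 and Irf7, minus its mean over the 12 arrays (colour and printed value), with arrays in columns by genotype and replicate number. H2-Q9;H2-Q7 and H2-D1 are highest on Crebbp+/- 3 and Ep300+/- 3, as is Irf1, H2-Q6;H2-Q8 is highest on Crebbp+/- 3 and 1, and H2-T24, B2m and Psmb8 are above their means on all 4 Crebbp+/- arrays, as is Irf7.

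Interferon factors were read on the same arrays. Irf7, which drives type I interferon genes, stood at 8.30, 8.38, 8.79 and 8.11 in wild type, 11.15, 10.56, 10.83 and 10.10 in Crebbp+/- and 7.81, 8.70, 9.25 and 7.68 in Ep300+/-, with all Crebbp+/- arrays above the other 8. Irf1, an activator of class I promoters, stood at 14.03 on Crebbp+/- 3 and 13.86 on Ep300+/- 3, with the other 10 arrays between 9.12 and 12.01. The cytokine gene Tnf likewise read 14.38 and 14.36 on those arrays and 7.76 to 12.29 on the others. Of 15 interferon signalling genes listed, 6 were measured, of which Irf7 and Stat2 rose in Crebbp+/- against wild type and 0 fell (list median 0.99), beside 5.02% of probe sets higher in the table. Under the block 4 of the 6 passed, beside 17.5%, the others being Irf1 and Jak1, a kinase of interferon receptors. Jak1 had a log2 difference of 0.998 (limma adjusted p = 0.0526, and 0.00816 with the block). That of Irf1 was 1.58 in Crebbp+/- (limma adjusted p = 0.288, and 0.0431 with the block). In Ep300+/- the Irf1 difference from wild type was larger, at 1.89 (SE 0.93, limma adjusted p = 0.965, and 0.209 with the block). Crebbp+/- minus Ep300+/- was -0.31 for Irf1, 2.30 for Irf7 (limma adjusted p = 0.0116) and 1.48 for Stat2 (limma adjusted p = 0.0127). Leaving out 1 array took these adjusted p-values up to 0.0547 for Irf7 and 0.0616 for Stat2. In that comparison 2 of the 6 passed as higher, beside 4.89% of probe sets, and 3 with the block, beside 19.1%. In Ep300+/- against wild type 0 of the 6 passed (list median -0.00088), with Irf7 at -0.033 and Stat2 at -0.50. Irf7 rose in Crebbp+/- against wild type by a log2 difference of 2.27 (limma adjusted p = 0.0128). Stat2, a partner of Irf9 in the interferon-activated complex, rose by 0.99 (limma adjusted p = 0.0423). The Irf7 call against wild type was lost on leaving out wild-type 4 (0.0501), Crebbp+/- 1 (0.0561) or Crebbp+/- 2 (0.0503). That of Stat2 was lost on leaving out any wild-type array (0.0747 to 0.149), any of Crebbp+/- 1 to 3 (0.0530 to 0.150), Ep300+/- 1 (0.0641) or Ep300+/- 2 (0.0538), with only the 2 genotypes fitted (0.0608), and after quantile normalization or centring (0.0808 and 0.0741).

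Of 26 further genes of antigen presentation listed, 7 were measured. In Crebbp+/- against wild type 0 passed (median 0.58), beside 5.02% of probe sets higher, and with the block 1 did, beside 17.5%. This was Tapbp, tapasin, which holds class I molecules to the peptide transporter. Tapbp read 8.61, 8.51, 7.93 and 7.87 in wild type, 9.40, 9.88, 8.68 and 8.72 in Crebbp+/- and 8.01, 8.21, 7.61 and 7.46 in Ep300+/-, so that every Crebbp+/- array was above the other 8. Its log2 difference was 0.94 from wild type (SE 0.33, limma adjusted p = 0.101, and 0.0101 with the block). From Ep300+/- it was 1.34 (SE 0.33, limma adjusted p = 0.0310), the 1 of the 7 to pass, beside 4.89% of probe sets. The latter call was lost when Crebbp+/- 1 (0.114), Crebbp+/- 2 (0.104), Ep300+/- 1 (0.0731), Ep300+/- 4 (0.0876) or both heterozygous arrays numbered 3 (0.0518) were left out. Tapbp and Marchf1, a ligase that removes class II and Cd86 from the surface, had the smallest p-values of the 7 against Ep300+/-, and Marchf1 had a log2 difference of 0.67 (limma adjusted p = 0.158). In Ep300+/- against wild type 0 of the 7 passed (median -0.089). The smallest p-values were those of Cd274, an inhibitory ligand of T cells (log2 difference 2.05, SE 0.99, limma adjusted p = 0.965), and Mr1, a class I-like molecule (-0.49). Cd274 differed from wild type by a similar amount in Crebbp+/- (2.11, SE 0.99, limma adjusted p = 0.192, and 0.0502 with the block). Its difference between the heterozygotes was 0.060.

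Ranked by their correlation with the mean of the 7 class I probe sets over the 12 arrays, the 5 most alike of 1968 genes with their own symbol were Rsad2 (Pearson r = 0.98), Parp14 (0.97), Gbp3 (0.96), Cflar (0.96) and Tmem88 (0.96). Rsad2 is an interferon-induced antiviral enzyme, Gbp3 an interferon-induced guanylate-binding protein and Cflar an inhibitor of death receptor signalling. Rsad2 was at 11.88, 11.36, 12.59 and 10.69 in Crebbp+/- and 11.67 on Ep300+/- 3, against 9.02 to 9.85 on the other 7 arrays. The genes were chosen for this likeness, so it is a description.

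Markers of other cells were read on the same arrays, since class I levels differ between cell types and fewer cells of a type cannot be told apart here from less RNA per cell. Of 11 stromal markers 8 were measured, with Cxcl12 between 13.50 and 14.92, Lepr between 4.85 and 9.89 and Col1a2 between 4.08 and 7.59. In Crebbp+/- against wild type 0 passed, and Col1a2 was lower with the block (log2 difference -1.42, limma adjusted p = 0.135, and 0.0346 with the block). With the block 812 of 3109 probe sets passed in either direction. Against Ep300+/- 0 passed, and 3 were higher in Crebbp+/- with the block (Col3a1, Ebf3 and Foxc1), beside 19.1% of probe sets. Of 14 endothelial markers 13 were measured. In Crebbp+/- against wild type 9 passed as higher, beside 5.02% of probe sets, and 0 as lower, and 13 passed with the block, beside 17.5%. Against Ep300+/- 13 passed as higher in Crebbp+/-, beside 4.89% of probe sets, and 13 with the block, beside 19.1%. In Ep300+/- against wild type 0 of these markers passed. Their mean, centred over arrays, was 2.04, 1.69 and 1.99 on Crebbp+/- 1, 2 and 3, and 0.034 on Crebbp+/- 4. In wild type it was 0.34 on array 1 and -0.85, -0.84 and -0.80 on arrays 2, 3 and 4, and in Ep300+/- it lay between -1.38 and -0.39. The part of the endothelial markers in the class I differences was not tested. Of 10 macrophage markers 3 were measured, with Cd163 between 12.83 and 14.38. Cd163, a scavenger receptor of macrophages, rose in Crebbp+/- against wild type by a log2 difference of 1.19 (SE 0.26, limma adjusted p = 0.0228). It was the 1 of the 3 to pass, beside 5.02% of probe sets. That call was lost after quantile normalization (0.176) or centring (0.0594) and on leaving out wild-type 2, 3 or 4 or Crebbp+/- 1, 2 or 3 (0.0501 to 0.0918). With the block Fcgr1, an Fc receptor, also passed (log2 difference 0.56, limma adjusted p = 0.113, and 0.0393 with the block), and 0 of the 3 were lower. The block thus gave 2 of the 3, beside 17.5% of probe sets higher. The mean of the 3 lay between -0.53 and -0.41 in wild type, between -0.12 and 0.92 in Crebbp+/- and between -0.14 and 0.83 in Ep300+/-, and its part was not tested either. Only Cd83 of 9 dendritic cell markers, Blnk of 7 B cell markers and 0 of 7 T and NK cell markers were in the table. These are too few to describe those cells. Blnk was lower in Crebbp+/- than in Ep300+/- (log2 difference -1.73, limma adjusted p = 0.0235, and 0.00425 with the block). Against wild type Blnk passed as lower in Crebbp+/- only with the block (-1.21, limma adjusted p = 0.0789, and 0.0119 with the block). Cd83 was not called.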

How the data were processed

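Values are log2 levels as deposited, computed by the authors with GCRMA according to the submitters' processing notes. The version, chip definition and filter were not given in the sources used here. There were 3127 probe sets. The 18 control probe sets were left out and no further normalization was applied. Symbols came from the platform annotation, under which 2486 probe sets had 1 symbol, 176 several and 447 none. All 10 member symbols matched the GRCm38.p6 gene table by gene ID.

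Genotypes were compared with limma 3.58.1 in R 4.3.3 (lmFit, eBayes) in 1 fit over 12 arrays without covariates, two-sided, with Benjamini-Hochberg adjustment over 3109 probe sets and a call at an adjusted p under 0.05. The fit was run on simulated data in which arrays varied independently, so the shared deviations of same-numbered arrays were not part of that test. The number of arrays limits the precision. Members and lists were chosen with earlier results of these data known. Members were all named. Of other genes, those called or of smallest p in the listed pathway, and the 5 most like class I, were named by rule, and Irf1, Irf7, Tnf, Eif2s3y and marker genes were named after their values were seen.

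Replicate numbers recur across genotypes without a stated meaning. Arrays with the same number deviated together from their group means, with r of 0.448 to 0.603 for Crebbp+/- and wild type. Between the heterozygotes r was 0.294 to 0.513, so both lay above the bound of 0.1 set for pairing. For Ep300+/- and wild type r was 0.0593 to 0.683. The main fit, its intervals and its calls were still unpaired in all comparisons. Pairing by replicate number entered only through the block, which was run as an alternative. Blocked values stand beside the results that the text gives where the block changes the call. Alternatives were normalization, centring, a low filter, eBayes settings, fewer groups, array weights, the block, a fold minimum of 1.5 and leaving out arrays. The Y-linked covariate and the omission of both arrays numbered 3 were added after seeing the data, as was the gene-by-gene method for array weights, since the default did not converge.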

Additional observations from a re-analysis of the deposited data

Results flagged for a closer look

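Psmb8 on Ep300+/- 4 was 9.76, while the other 3 Ep300+/- arrays lay between 10.19 and 10.26. The gap to the nearest of them was 0.855 of the range of the group, above Dixon's 95% critical value for 4 samples. It was the 1 such value among 24 groups of 4 arrays (8 members in 3 genotypes), and chance alone gives about 1 in 20.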

How the results depend on the processing

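In Crebbp+/- against wild type the number of members called was 1. It was 0 after quantile normalization and with the Y-linked covariate, 4 with the replicate number as a block, 7 with array weights and 0 to 1 without any single array. Between the heterozygotes it was 1, with 0 under the Y-linked covariate, 3 with the block, 7 with array weights and 0 to 1 without any single array. In Ep300+/- against wild type it was 0 under every alternative run. Calls over the whole table numbered 192 and 199 in the comparisons of Crebbp+/- with wild type and Ep300+/-, 812 and 760 with the block, 1267 and 1273 with array weights and 0 and 0 with the Y-linked covariate, and the latter was 51 with only those genotypes fitted. On leaving out 1 array they ranged from 5 (wild-type 4) to 383 (Crebbp+/- 4) and from 2 (Ep300+/- 1) to 374 (Crebbp+/- 4), so the shares of the table called move with single arrays. The class I median stayed between 0.41 and 0.73 in Crebbp+/- against wild type.

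Directions of members in Crebbp+/- against wild type held under every alternative run. Between the heterozygotes, H2-Q9;H2-Q7 was -0.24 and H2-D1 -0.028 with the Y-linked covariate, and H2-Q9;H2-Q7 ranged from -0.028 to 1.54 without any single array. In Ep300+/- against wild type 28 of 166 values changed sign. Without Ep300+/- 3, H2-Q9;H2-Q7 went from 0.77 to -0.12 and H2-Q6;H2-Q8 from 0.47 to -0.078. After quantile normalization H2-D1 was -0.026, B2m -0.028, H2-M9 -0.014 and H2-K1 -0.0031, after centring H2-M9 was -0.027 and H2-K1 -0.051, with array weights H2-M9 was -0.19 and H2-K1 -0.12, and with the Y-linked covariate H2-K1 was -0.027. Without both arrays numbered 3, H2-Q9;H2-Q7 was -0.12, H2-D1 -0.047, H2-Q6;H2-Q8 -0.078, B2m -0.032 and H2-K1 -0.23. Without any single array the ranges were -0.12 to 1.16 for H2-Q9;H2-Q7, -0.29 to 0.10 for H2-T24, -0.14 to 0.040 for Psmb8, -0.047 to 0.34 for H2-D1, -0.078 to 0.88 for H2-Q6;H2-Q8, -0.032 to 0.37 for B2m, -0.28 to 0.27 for H2-M9 and -0.23 to 0.14 for H2-K1. The cause of these changes was not tested. The low filter left out H2-K1 and H2-Q6;H2-Q8, and alternatives for class II were not run, as it had no members.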
